A study of Mus musculus with 36 samples.

Results

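The chemokine receptor genes Ccr1, Ccr2, Ccr6, Ccr7, Cxcr4 and Cx3cr1 were followed through a TGF-β1 time course in mouse blood progenitors. Their probe sets were found by the gene symbol of the array annotation, with probe sets that carry several symbols left out, and each of the 6 genes had 1 such probe set. They are 6 of the 19938 genes measured. In common dendritic cell progenitors Ccr6 rose 5.07-fold over 24 h and Ccr1 rose 2.08-fold, while in multipotent progenitors Cx3cr1 was the receptor that rose, by up to 2.5-fold. Ccr7 stood far apart between the cell types and showed no called change in either.

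The samples were multipotent progenitors (MPP) and common dendritic cell progenitors (CDP) from mouse bone marrow, grown in vitro with cytokines and then sorted by FACS. Each cell type was measured untreated (0 h) and after 2, 4, 8, 12 and 24 h with 10 ng/ml of recombinant human TGF-β1, on 3 arrays per group, 18 arrays per cell type and 36 in all. The strain, sex and age of the mice were not given in the sources used here, and the study calls the replicates biological. No array of untreated cells at a later time was analysed here, so time in culture and TGF-β1 treatment cannot be told apart. One label gives the third treatment time as 6 h where the sample names and the study's methods give 8 h, which is used below.

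Chemokine receptors are receptors with 7 membrane passes that couple to inhibitory G proteins and steer cells along gradients of small secreted proteins. Which of them a blood progenitor or dendritic cell (DC) carries decides which tissue it can enter: Cxcr4 holds progenitors in the marrow, Ccr2 takes monocytes and DC precursors out of it, Ccr6 leads immature DC and Langerhans cell precursors towards epithelia, and Ccr7 brings mature DC to lymph nodes. Cx3cr1, the receptor of the membrane-bound chemokine fractalkine, marks monocytes and DC progenitors. Ccr1 binds several inflammatory chemokines.

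Promoter windows are shown for Ccr6 and Cx3cr1 because these were the receptors with the largest called changes in CDP and in MPP. Each window is from RefSeq (GRCm38.p6) and holds 250 bases before and 50 after an annotated start, 300 in all. Capitals mark the Smad box CAGAC or its reverse complement. Smad proteins carry the TGF-β signal to DNA. Ccr6 has 2 annotated starts, both on the plus strand, at chr17:8235793-8236092 and chr17:8242276-8242575, and the Cx3cr1 window lies on the minus strand at chr9:120068247-120068546. The sequences are given 5′ to 3′ along the gene.
Ccr6, first start: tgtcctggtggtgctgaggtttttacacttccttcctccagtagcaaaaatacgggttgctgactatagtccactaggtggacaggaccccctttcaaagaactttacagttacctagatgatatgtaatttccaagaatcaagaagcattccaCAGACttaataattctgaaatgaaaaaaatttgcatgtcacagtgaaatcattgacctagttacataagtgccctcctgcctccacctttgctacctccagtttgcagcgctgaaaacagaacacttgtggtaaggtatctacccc
Ccr6, second start: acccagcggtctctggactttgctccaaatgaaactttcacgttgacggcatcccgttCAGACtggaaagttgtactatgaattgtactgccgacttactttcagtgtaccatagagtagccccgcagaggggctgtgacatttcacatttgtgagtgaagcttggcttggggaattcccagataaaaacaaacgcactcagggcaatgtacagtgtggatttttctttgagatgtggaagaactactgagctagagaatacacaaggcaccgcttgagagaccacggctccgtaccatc
Cx3cr1: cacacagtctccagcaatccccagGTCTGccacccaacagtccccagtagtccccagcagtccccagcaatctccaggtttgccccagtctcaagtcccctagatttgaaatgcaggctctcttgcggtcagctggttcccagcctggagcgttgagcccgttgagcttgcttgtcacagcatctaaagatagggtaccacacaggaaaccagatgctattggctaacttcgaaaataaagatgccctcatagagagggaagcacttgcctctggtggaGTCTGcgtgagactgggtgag
The box begins at -96 from the first Ccr6 start, at -192 from the second, and at -226 and 29 in the Cx3cr1 window. None was found in the windows of Ccr1, Ccr2 or Cxcr4, and the table holds no entry for Ccr7. Of 32851 promoter windows of the same length, 49.6% hold CAGAC on one strand or the other, so a match is a description and not a binding site. The Smad palindrome GTCTAGAC was in 0.2% of all windows and in none of these.

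All values below are log2 levels as deposited, and a difference is between log2 levels unless it is called a fold. A gene was called, and is said to have risen or fallen, at an adjusted p under 0.01 (limma, Benjamini-Hochberg over all 19938 genes) with a log2 difference of 1 or more. The treatment was visible in known TGF-β targets: Pmepa1, Skil, Smad7 and Ski rose in both cell types at 2 h, and all but Ski in CDP were still called at 24 h. In untreated CDP 6 of 14 DC markers were higher than in MPP and 9 of 12 neutrophil markers were lower, where 2.81% of all genes were called. Of the multipotent progenitor markers Kit, the stem cell factor receptor (-2.67), Gata2 (-1.80) and Cd34 (-1.04) were lower. Flt3, listed with the DC markers too, was higher (2.14). Kit then rose in CDP at 24 h (2.79 ± 0.26, adjusted p = 1.52e-06) and was not called between the cell types at that time. The mean level of 13 interferon-stimulated genes set some arrays apart: it was 7.66 to 9.11 over the MPP arrays and 7.71 to 12.73 over the CDP arrays, with the highest value in CDP 2 h replicate 3. In CDP replicate 3 was the highest of the 3 at 5 of 6 times (10.69 at 0 h), and replicate 1 at 4 h, with 10.60. At 24 h, CDP replicate 2 had the lowest mean of the mature DC markers, 9.40 against 10.44 and 10.65 in the other 2 replicates.

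Against 0 h, the 6 receptors gave few called changes. These built up with time in CDP and were confined to 8 h and 12 h in MPP. In MPP none was called at 2 h, at 4 h or at 24 h, where 0.271%, 0.416% and 1.2% of all genes were called. Cx3cr1 was the 1 receptor called in MPP at 8 h and at 12 h, where the background was 0.657% and 0.737%. In CDP none was called at 2 h or 4 h, against 0.326% and 0.702% of all genes. Ccr6 was called at 8 h and 12 h, with 1.27% and 1.86% of all genes, and Ccr6 and Ccr1 were called at 24 h, with 3.14%. Over the whole time course a moderated F-test with the same fold minimum called Cx3cr1 in MPP, with 1.33% of all genes, and Ccr1 and Ccr6 in CDP, with 3.43%. Smaller differences were common: by adjusted p alone, 5 of the 6 receptors passed in CDP at 24 h, where 19.8% of all genes did, and 2 of 6 in MPP at 24 h, where 9.71% did. These comparisons share the 0 h arrays of their cell type. In such bulk samples, fewer cells of a type and less RNA per cell cannot be told apart.

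**Figure D1:**
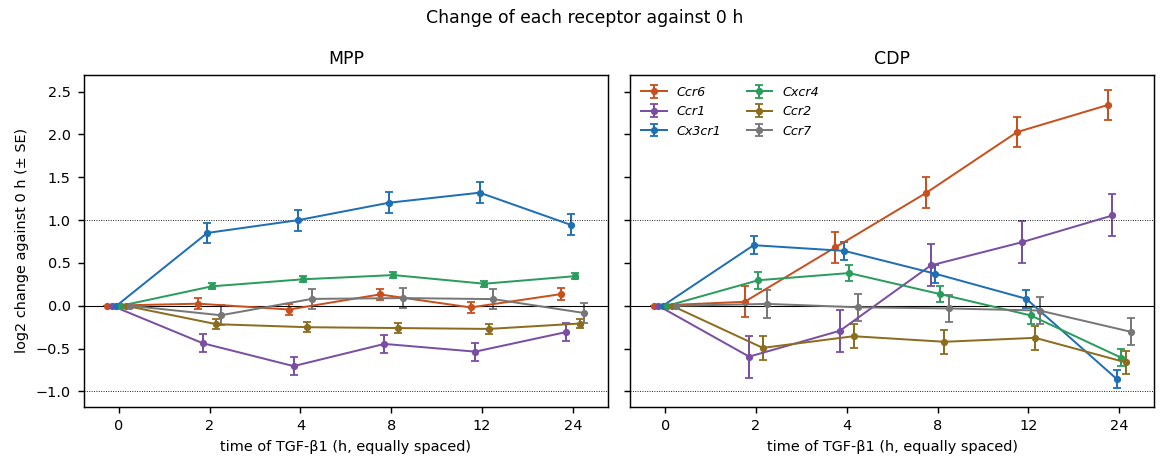
Log2 change of the 6 receptors against 0 h (points, limma estimate; bars, standard error) in MPP (left) and CDP (right), over treatment times in h spaced equally; dotted lines mark a change of 1. Ccr6 climbs to 2.34 in CDP and stays within 0.14 of 0 in MPP, while Cx3cr1 stays up in MPP and ends at -0.86 in CDP.

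Ccr6, the receptor of Ccl20, rose in CDP from 8 h on and was not called in MPP at any time. In untreated CDP its level was 7.84, 8.32 and 7.41 in replicates 1 to 3. At 4 h it was 8.79, 9.18 and 7.66, at 8 h 9.02, 9.41 and 9.11, at 12 h 9.78, 10.44 and 9.44, and at 24 h 10.35, 10.35 and 9.92. From 8 h on, every array stood above every untreated array, and replicate 3 was the lowest at 5 of the 6 times. That replicate also had the most of the interferon-stimulated genes, whose part in the lower Ccr6 level was not tested. The 24 h difference was 2.25 or more whichever array or replicate was left out. The difference from 0 h was 0.05 ± 0.18 (SE, n = 3 per group) at 2 h, 0.68 ± 0.18 at 4 h (adjusted p = 0.028, under the fold minimum), 1.32 ± 0.18 at 8 h (adjusted p = 0.000134), 2.03 ± 0.18 at 12 h (adjusted p = 1.65e-06) and 2.34 ± 0.18 at 24 h (adjusted p = 1.77e-07). The 8 h call needs the replicate number as a block: without it the adjusted p was 0.0239. No single step between neighbouring times passed, and each was under the fold minimum. The steps were 0.64 ± 0.18 from 2 to 4 h and 0.64 ± 0.18 from 4 to 8 h. The largest was 0.71 ± 0.18, from 8 to 12 h (adjusted p = 0.213), and that from 12 to 24 h was 0.32 ± 0.18.

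In MPP the Ccr6 level lay between 6.34 and 6.74 on all 18 arrays, below every CDP array. The largest difference from 0 h was 0.14 ± 0.07, at 24 h, with an adjusted p of 0.222 and a 95% interval of -0.01 to 0.28. The files used here hold no detection call, so whether this level is above background was not tested. Ordered by mean level, the 6 CDP groups come first in the order 24, 12, 8, 4, 2 and 0 h and the 6 MPP groups follow. The 24 and 12 h groups of CDP overlap, as do all neighbours from 8 h down to 0 h, and all 6 MPP groups overlap with their neighbours in the order.

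**Figure D2:**
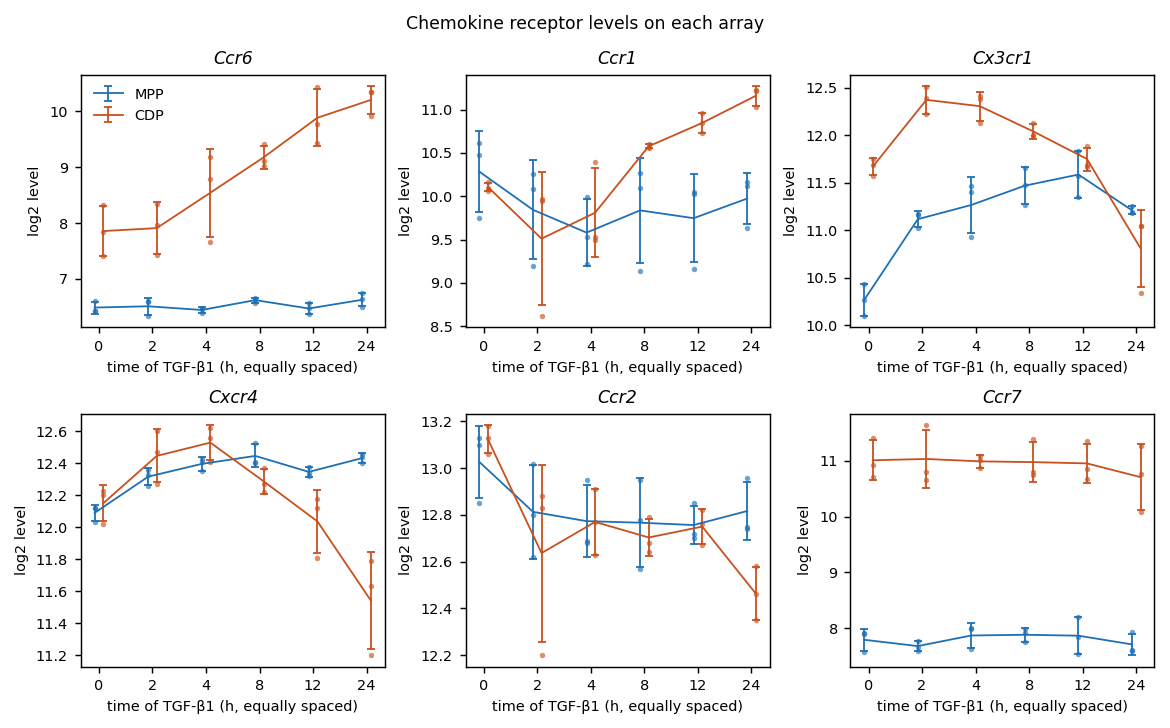
Log2 level of each receptor on each of the 36 arrays (points) by treatment time in h, spaced equally, in MPP (blue) and CDP (orange); lines join group means and bars are the SD of 3 arrays. Each panel has its own vertical range. Ccr7 and Ccr6 separate the cell types on every array, and the Cx3cr1 and Cxcr4 means in CDP stand above the untreated level at 2 and 4 h and below it at 24 h.

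Ccr1, a receptor of inflammatory chemokines such as Ccl3, Ccl6 and Ccl9, rose in CDP at 24 h and was lower than at 0 h, without a call, in MPP. In CDP it was 10.16, 10.10 and 10.06 untreated, 9.94, 9.97 and 8.62 at 2 h, and 9.53, 10.40 and 9.50 at 4 h. It then went to 10.56, 10.57 and 10.60 at 8 h, 10.85, 10.96 and 10.73 at 12 h, and 11.03, 11.23 and 11.22 at 24 h. From 8 h on all arrays stood above the untreated ones and the groups at 8, 12 and 24 h did not overlap with one another. The difference from 0 h was 0.47 ± 0.25 at 8 h, 0.74 ± 0.25 at 12 h (adjusted p = 0.0522) and 1.05 ± 0.25 at 24 h (adjusted p = 0.00439). The call at 24 h is narrow: it was lost without the replicate block (adjusted p = 0.0116) and on leaving out CDP 0 h replicate 1 or 2 or CDP 24 h replicate 1 or 3 (differences of 0.89 to 1.14), with all differences above 0. It was also lost without all arrays of replicate 1 (1.15, adjusted p = 0.0336) or of replicate 2 (1.01, adjusted p = 0.0421).

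The low Ccr1 value at 2 h was that of CDP 2 h replicate 3, the array with the highest interferon-stimulated genes. With it the difference at 2 h was -0.59 ± 0.25 (adjusted p = 0.288), and without it -0.19 ± 0.17 (adjusted p = 0.841). At 4 h Ccr1 was 9.53 and 9.50 in CDP replicates 1 and 3, whose interferon means were 10.60 and 10.12. Replicate 2 had 10.40, with an interferon mean of 8.12. Untreated CDP replicate 3, with an interferon mean of 10.69, had a Ccr1 level of 10.06, beside 10.16 and 10.10 in the others. The part of the interferon genes in these values was not tested. In MPP Ccr1 was 10.48, 10.62 and 9.75 untreated and 9.53, 9.99 and 9.22 at 4 h, its lowest mean, and ended at 10.12, 10.17 and 9.63. The MPP groups overlap at every time because replicate 3 was the lowest array at 6 of 6 times, but all 3 replicates were lower than their own 0 h array at every time. The difference in MPP was -0.70 ± 0.11 at 4 h (adjusted p = 0.000386, under the fold minimum) and -0.31 ± 0.11 at 24 h (adjusted p = 0.0678).

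Cx3cr1, the fractalkine receptor, stood higher at 2 h than at 0 h in both cell types, rose past the fold minimum in MPP only at 8 and 12 h, and ended below its untreated level in CDP. In MPP it was 10.10, 10.27 and 10.43 untreated, 11.16, 11.17 and 11.02 at 2 h, 11.66, 11.48 and 11.27 at 8 h, 11.57, 11.84 and 11.35 at 12 h, and 11.26, 11.19 and 11.18 at 24 h. Every treated MPP array stood above every untreated one. The difference from 0 h was 0.85 ± 0.12 at 2 h, 0.9987 ± 0.12 at 4 h, 1.20 ± 0.12 at 8 h (adjusted p = 4.28e-06), 1.32 ± 0.12 at 12 h (adjusted p = 1.32e-06) and 0.94 ± 0.12 at 24 h (adjusted p = 3.49e-05). The calls at 8 h and 12 h alone pass the fold minimum. At 2, 4 and 24 h the difference lies so near 1 that leaving out MPP 0 h replicate 3 takes it past, to 1.02, 1.17 and 1.12. That array also had the highest mean of the interferon-stimulated genes in MPP, 9.11 against 7.95 and 7.90 in replicates 1 and 2.

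In CDP Cx3cr1 started higher, at 11.69, 11.57 and 11.75, and reached 12.39, 12.22 and 12.51 at 2 h. It was then at 12.00, 11.99 and 12.13 at 8 h, 11.67, 11.69 and 11.89 at 12 h, and 11.05, 10.34 and 11.04 at 24 h. The 2 h arrays all stood above the untreated ones and the 24 h arrays all below them. The difference was 0.71 ± 0.10 at 2 h (adjusted p = 0.000892), 0.08 ± 0.10 at 12 h (adjusted p = 0.722) and -0.86 ± 0.10 at 24 h (adjusted p = 1.69e-05), none of them past the fold minimum. Of the steps, that from 12 to 24 h was the largest, -0.94 ± 0.10 (adjusted p = 5.92e-05). Without CDP 24 h replicate 2, the lowest array, the difference at 24 h was -0.68 ± 0.06 (adjusted p = 2.34e-06).

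Beside the lower Cx3cr1 at 24 h in CDP, 9 of 12 monocyte and macrophage markers fell, among them Adgre1, the F4/80 antigen (-3.44), and Lyz2, lysozyme (-1.94). Their mean level was 11.05 to 11.46 in untreated CDP and 9.17 to 9.87 at 24 h, with the lowest value in the same replicate 2. In MPP at 24 h, 4 of the 12 fell, and their mean went from a range of 11.07 to 11.42 to one of 10.24 to 10.63. Of 8 Langerhans cell markers 6 rose in CDP at 24 h, with Cldn1 (6.02) and Itgae (4.88) the most changed, and Cd207 and Cd24a were not called. In MPP 5 of the 8 rose, and the mean of the list at 24 h was 9.50 to 9.78 in MPP against 11.18 to 11.31 in CDP. At 24 h 3.14% of all genes were called in CDP and 1.2% in MPP. The part of these cell markers in the receptor values was not tested.

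Cxcr4, the receptor of Cxcl12, was slightly higher than at 0 h in MPP and ended lower in CDP, with no call in either. In MPP it was 12.12, 12.12 and 12.03 untreated and 12.44, 12.46 and 12.40 at 24 h. The spread between arrays was so small that a difference of 0.35 ± 0.04 had an adjusted p of 4.86e-06, far under the fold minimum. In CDP it was 12.23, 12.02 and 12.20 untreated, 12.56, 12.41 and 12.62 at 4 h, 12.12, 11.81 and 12.18 at 12 h, and 11.79, 11.20 and 11.63 at 24 h. Every 24 h array in CDP stood below every untreated one. The difference at 24 h was -0.61 ± 0.10 (adjusted p = 0.000237) and the step from 12 to 24 h was -0.49 ± 0.10 (adjusted p = 0.00507), neither a call. Without replicate 2, the lowest array, the 24 h difference was -0.49 ± 0.09 (adjusted p = 0.00121).

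Ccr2, the receptor of Ccl2 that lets monocytes leave the marrow, was slightly lower after TGF-β1 in both cell types. In CDP it was 13.18, 13.06 and 13.13 untreated and 12.35, 12.58 and 12.46 at 24 h, without overlap. The difference was -0.66 ± 0.14 at 24 h in CDP (adjusted p = 0.00199) and -0.21 ± 0.06 at 24 h in MPP (adjusted p = 0.0175), both under the fold minimum. At 2 h the CDP level was 12.88, 12.83 and 12.20, with the low value again in replicate 3, and the difference was -0.49 ± 0.14, or -0.24 ± 0.08 without that array. In MPP the levels ran from 12.57 to 13.13 over all arrays, and replicate 3 was the lowest at 6 of 6 times. Ccr1 and Ccr2 lie close together on chromosome 9 with 2 protein-coding genes between them, Ccr1l1 and Ccr3.

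Ccr7, the receptor of Ccl19 and Ccl21, differed between the cell types at every time and showed no called change with TGF-β1. In CDP it was 10.71, 10.92 and 11.41 untreated, 10.66, 10.81 and 11.64 at 2 h, 10.85, 10.67 and 11.35 at 12 h, and 10.77, 10.09 and 11.27 at 24 h. The groups overlap at all times, and replicate 3 was the highest array at 6 of 6 times. The difference from 0 h was 0.02 ± 0.16 at 2 h, -0.06 ± 0.16 at 12 h and -0.30 ± 0.16 at 24 h (adjusted p = 0.201, 95% interval -0.64 to 0.04). Without CDP 24 h replicate 2 the last difference was -0.08 ± 0.14 (adjusted p = 0.757). In MPP every array lay between 7.54 and 8.21, and no difference from 0 h was larger than 0.11 in size.

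This flat course of Ccr7 stood beside changes in other markers of mature DC. Of 14 such markers in CDP at 24 h, 4 rose, among them the costimulatory molecules Cd40 (2.16 ± 0.49), Cd80 (1.31 ± 0.24) and Cd86 (1.16 ± 0.19), and 1 fell, Samsn1 (-1.07 ± 0.07). Their mean level was 9.11, 9.32 and 9.76 in the 3 untreated CDP arrays and 10.44, 9.40 and 10.65 at 24 h. High values were not confined to 24 h: CDP 2 h replicate 3 had 10.77, above every 24 h array, and CDP 4 h replicate 1 had 9.84. Both arrays stood out in the interferon-stimulated genes, whose part in these values was not tested. Single arrays were not left out for these markers. Replicate 2, the lowest of the 24 h arrays here, was also the lowest in Ccr7. In MPP none of the 14 was called at 24 h. Over all genes 3.14% were called at that time in CDP and 1.2% in MPP.

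Whether the cell types responded differently was tested by subtracting the MPP change from the CDP change, in 1 fit of 36 arrays. None of the 6 receptors was called at 2 h or 4 h, where 0.0301% and 0.14% of all genes were. At 8 h 1 was called, Ccr6, against 0.411% of all genes. At 12 h and 24 h 3 were called, Ccr6, Ccr1 and Cx3cr1, against 0.727% and 1.85%. By adjusted p alone Cxcr4 joined them at 24 h, making 4 of 6, where 10.1% of all genes passed. Each difference grew from 8 to 24 h, upwards for Ccr6 and Ccr1 and downwards for Cx3cr1.

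For Ccr6 the difference of responses was 1.19 ± 0.20 at 8 h (adjusted p = 0.000592), 2.05 ± 0.20 at 12 h (adjusted p = 2.18e-07) and 2.21 ± 0.20 at 24 h (adjusted p = 1.07e-08). For Cx3cr1 it was -0.83 ± 0.17 at 8 h (adjusted p = 0.00416), -1.24 ± 0.17 at 12 h (adjusted p = 2.17e-05) and -1.80 ± 0.17 at 24 h (adjusted p = 1.7e-08). For Ccr1 it was 1.28 ± 0.28 at 12 h (adjusted p = 0.0056) and 1.36 ± 0.28 at 24 h (adjusted p = 0.00115). Cxcr4 had -0.95 ± 0.11 at 24 h (adjusted p = 2.79e-07), just under the fold minimum and past it without CDP 24 h replicate 1 (-1.04). Without the replicate block the Ccr1 calls were lost (adjusted p = 0.258 at 12 h and 0.078 at 24 h) and so was that of Ccr6 at 8 h (adjusted p = 0.182), while the directions did not change. The Ccr6 call at 8 h was also lost without CDP 8 h replicate 3 (0.96 ± 0.18). It was lost as well without all arrays of replicate 1 (1.29, adjusted p = 0.0399), replicate 2 (1.31, adjusted p = 0.0179) or replicate 3 (0.96). The Ccr1 call at 12 h was lost on leaving out any of 10 of the 12 arrays compared. That of Ccr1 at 24 h was lost without all arrays of replicate 1 (1.43, adjusted p = 0.0273) or of replicate 2 (1.25, adjusted p = 0.0406). The MPP level of Ccr6 was 6.34 to 6.74 throughout, and whether a change could show at that level was not tested. For Ccr7 the difference at 24 h was -0.22 ± 0.21, with a 95% interval of -0.66 to 0.22, and for Ccr2 it was -0.45 ± 0.16 (adjusted p = 0.0497).

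**Figure D3:**
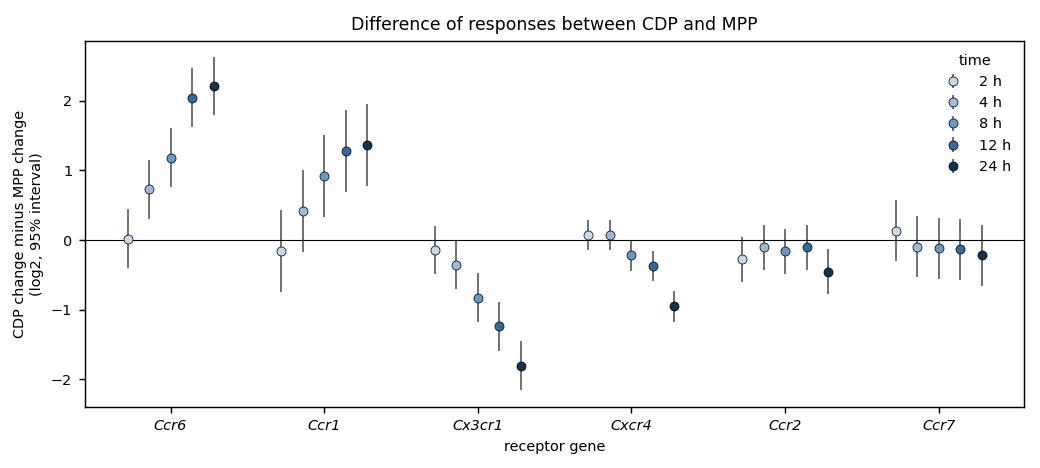
CDP change minus MPP change against 0 h for each receptor at 2, 4, 8, 12 and 24 h (points, log2; darker with time), with 95% intervals from limma on 36 arrays. The 24 h intervals lie above 0 for Ccr6 (1.79 to 2.62) and Ccr1 (0.77 to 1.95), below 0 for Cx3cr1, Cxcr4 and Ccr2, and around 0 for Ccr7.

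The levels themselves were also compared between the cell types. Untreated CDP had more Ccr7, Cx3cr1 and Ccr6 than untreated MPP, 3 of 6 receptors where 2.81% of all genes were called. Ccr7 was 9.32-fold higher (3.22 ± 0.25, adjusted p = 5.86e-11), Cx3cr1 2.64-fold (1.40 ± 0.15, adjusted p = 3.48e-08) and Ccr6 2.59-fold (1.37 ± 0.27, adjusted p = 0.000275). In none of the 3 did the arrays of the cell types overlap. The Ccr6 call was lost without all arrays of replicate 1 (1.36, adjusted p = 0.0526) or of replicate 2 (1.11, adjusted p = 0.0115). Ccr1, Ccr2 and Cxcr4 had differences of -0.18 ± 0.34, 0.10 ± 0.13 and 0.06 ± 0.10, with 95% intervals of -0.87 to 0.51, -0.17 to 0.37 and -0.15 to 0.27.

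After 24 h of TGF-β1 the receptors with more transcript in CDP were Ccr6, Ccr7 and Ccr1, again 3 of 6, against 5.06% of all genes. Ccr6 was now 12-fold higher (3.58 ± 0.27, adjusted p = 1.16e-11), Ccr7 8.01-fold (3.00 ± 0.25, adjusted p = 1.13e-10) and Ccr1 2.27-fold (1.18 ± 0.34, adjusted p = 0.00611). Both Ccr6 folds, untreated and at 24 h, are set against an MPP level of 6.34 to 6.74. Whether that level is above background was not tested. The Ccr1 call was lost on leaving out any array of the groups at 24 h but MPP 24 h replicate 2, with differences of 1.01 to 1.26. It was also lost without all arrays of any replicate, with 1.32, 1.24 and 0.98 for replicates 1 to 3. Cx3cr1, higher in CDP before treatment, had a difference of -0.40 ± 0.15 (adjusted p = 0.037), which was -0.17 ± 0.14 (adjusted p = 0.389) without CDP 24 h replicate 2. Cxcr4 had one of -0.89 ± 0.10 (adjusted p = 4.53e-08), under the fold minimum but past it without CDP 24 h replicate 1 (-1.02). The median difference of 12 neutrophil markers was -4.06, with 10 of them lower in CDP, and 9 of 14 mature DC markers were higher. Their part in the receptor differences was not tested.

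The genes whose 12 group means followed each receptor most closely were sought among 2098 genes that span 1 or more on the log2 scale. For Ccr6 they were Rab30 (Pearson r = 0.993), Tmem268 (0.993) and Il7r, the interleukin-7 receptor chain (0.991). For Ccr7 they were A530040E14Rik (0.998), Grap2 (0.996) and Slc44a1 (0.994). Both receptors separate the cell types, and the part of that separation in these values was not tested. For Cx3cr1 they were Nlrp1b (0.925), Enc1 (0.924) and Klhl25 (0.899), and for Ccr1 they were Zfp946 (0.909), Smtnl2 (0.903) and Prkcb (0.902). Ripor2 (0.938) was most like Ccr2, and Tgfbi (0.933), a gene known for its induction by TGF-β, most like Cxcr4. The group means of Ccr2 and Cxcr4 span under 1, so their likeness rests on small differences. The 12 points share arrays between all genes and cover 2 cell types.

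Of the other chemokine receptors 18 of 19 were measured. In MPP 2 of the 18 rose at 24 h and none fell, where 1.2% of all genes were called. The median difference was 0.00 against -0.01 over all genes. In CDP none of the 18 was called at 24 h, with a median of 0.06 against 0.00, where 3.14% of all genes were called. At 4, 8 and 12 h, with 0.702%, 1.27% and 1.86% of all genes called, 2 of the 18 rose. These were Cxcr2, the neutrophil receptor of Cxcl1 and Cxcl2, and Cxcr3, the receptor of the interferon-induced chemokines. Cxcr2 in MPP went from 10.24, 10.21 and 9.51 to 12.00, 12.03 and 11.97 at 24 h (2.01 ± 0.11). In CDP it was 7.87, 7.58 and 6.84 untreated, 9.41, 8.64 and 8.53 at 8 h (1.43 ± 0.25, adjusted p = 0.00107) and 6.96, 6.84 and 6.83 at 24 h. The Cxcr2 calls at 4 h and 12 h in CDP were each lost on leaving out any of 5 of 6 arrays.

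Cxcr2 was lower in CDP than in MPP on every array, by -2.56 ± 0.31 untreated and -5.13 ± 0.31 at 24 h, and its difference of responses at 24 h was -2.57 ± 0.29 (adjusted p = 4.17e-07). Cxcr3 in CDP was 7.84, 7.76 and 8.04 untreated, 9.92, 9.30 and 10.20 at 4 h (1.93 ± 0.12) and 8.25, 7.74 and 8.60 at 24 h. Its highest CDP mean was at 4 h, and its step from 12 to 24 h was -1.07 ± 0.12 (adjusted p = 8.5e-05). In MPP Cxcr3 rose at 8, 12 and 24 h, by 1.40, 1.45 and 1.11. Cmklr1, the chemerin receptor, was lower in CDP than in MPP at 24 h (-1.35 ± 0.32, adjusted p = 0.00113), a call lost without MPP 24 h replicate 3.

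**Figure D4:**
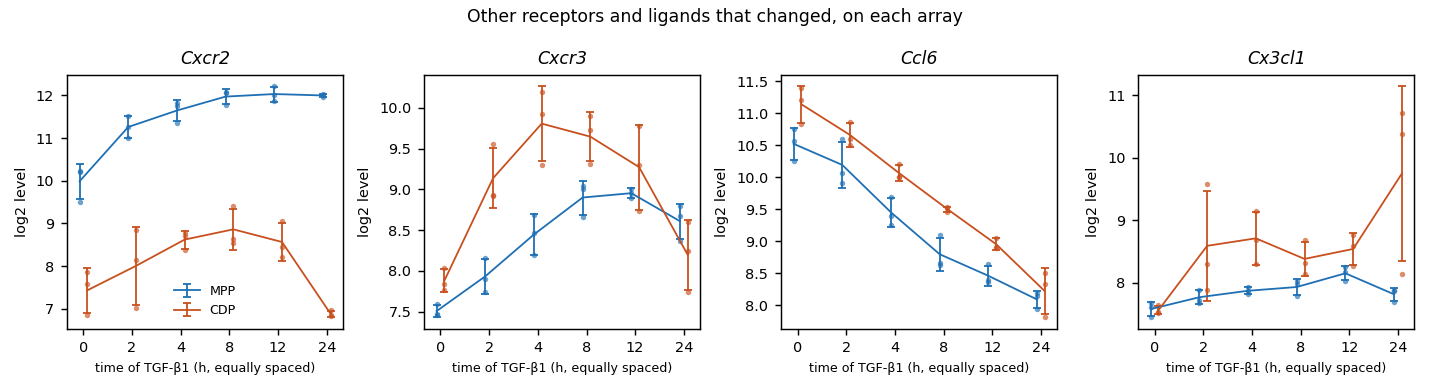
Log2 levels of the receptors Cxcr2 and Cxcr3 and of the ligands Ccl6 (of Ccr1) and Cx3cl1 (of Cx3cr1) on each array (points) by treatment time in h, spaced equally, in MPP (blue) and CDP (orange); lines join means and bars are the SD of 3 arrays. Ccl6 goes down steadily in both cell types, and Cx3cl1 at 24 h in CDP rests on 2 of the 3 arrays.

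Of the ligands of the 6 receptors 14 of 17 were measured. In MPP at 24 h 3 fell, Ccl6, Ccl9 and Ccl3, and none rose, with a median over the 14 of -0.11. The other ligands on the list were not called in MPP at that time. In CDP at 24 h Ccl6 and Ccl9 fell and Cx3cl1 rose, with a median of -0.07. Over all genes 1.2% were called in MPP and 3.14% in CDP at that time. Ccl6 went from 11.39, 10.83 and 11.20 in untreated CDP to 8.34, 7.82 and 8.51 at 24 h (-2.92 ± 0.13, adjusted p = 6.2e-10), and in MPP from 10.56, 10.75 and 10.26 to 7.94, 8.19 and 8.15 (-2.43 ± 0.09). It was called from 4 h on in both cell types, although the 4 h calls were lost without MPP 0 h replicate 1 and without CDP 0 h or 4 h replicate 1. Ccl9 fell by 1.23 ± 0.05 in MPP and by 1.89 ± 0.33 in CDP, where replicate 2 was at 8.41 and the others at 10.61 and 10.79. Without that array the CDP difference was -1.24 ± 0.11.

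Ccl3 in MPP was 11.67, 11.95 and 12.75 untreated and 10.30, 10.64 and 10.56 at 24 h (-1.62 ± 0.33, adjusted p = 0.00269), and the call was lost on leaving out MPP 0 h replicate 3 or MPP 24 h replicate 1 or 2. In CDP it was not called at 24 h, with 12.38, 8.49 and 12.70 on the 3 arrays. Cx3cl1, or fractalkine, was 7.64, 7.51 and 7.53 in untreated CDP and 10.72, 8.14 and 10.38 at 24 h (2.19 ± 0.46, adjusted p = 0.0022). The call was lost on leaving out CDP 0 h replicate 3 or CDP 24 h replicate 1 or 3, and without replicate 2 of the 24 h group the difference was 2.92 ± 0.35. Its own receptor Cx3cr1 stood at its lowest CDP mean at the same time, with 11.05, 10.34 and 11.04. Replicate 2 was thus the lowest array for both genes, and a relation between them was not tested. The main ligands of Ccr6, Ccr7 and Cxcr4 were named for their receptors and not for their values: over all 36 arrays Ccl20 was at 6.51 to 6.99, Ccl19 at 7.37 to 7.83 and Cxcl12 at 6.22 to 6.59, and none was called.

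**Figure D5:**
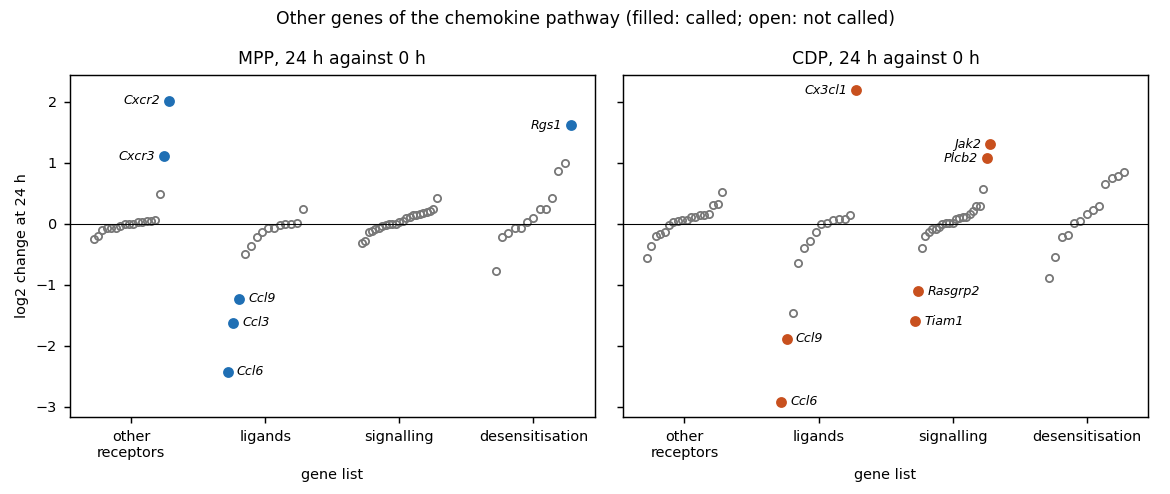
Log2 change at 24 h of every measured gene of 4 lists (other chemokine receptors, ligands of the 6 receptors, signalling, desensitisation) in MPP (left) and CDP (right); filled points were called and are named, open points were not. In MPP the called genes are 2 receptors, 3 ligands and Rgs1, and in CDP they are 3 ligands and 4 signalling genes.

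Of 23 genes that carry the signal from the receptor to the cytoskeleton and integrins, none was called in MPP at any time. The share of all genes called in MPP was 0.271% at 2 h and 1.2% at 24 h. In CDP at 24 h 2 rose and 2 fell, where 3.14% of all genes were called, with a median of 0.02 against 0.00 over all genes. Jak2, a tyrosine kinase, rose by 1.30 ± 0.18 and Plcb2, a phospholipase activated by G proteins, by 1.08 ± 0.10. Tiam1 and Rasgrp2, the exchange factors that load Rac and Rap1, had differences of -1.60 ± 0.12 and -1.11 ± 0.12 (adjusted p = 1.61e-07 and 4.18e-06). Their difference of responses was -1.46 ± 0.14 and -1.31 ± 0.15 at 24 h, both called. The Rasgrp2 call against 0 h was lost without CDP 24 h replicate 1 (-0.94). Tiam1 was 9.88, 10.11 and 10.31 in untreated CDP and 8.25, 8.80 and 8.47 at 24 h, with no overlap.

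Of the genes that end receptor signalling 13 of 15 were measured, among them the arrestins, receptor kinases and RGS proteins. In MPP Rgs1 and Rgs16 rose from 2 h to 12 h, and Rgs1 alone was called at 24 h. Rgs16 was then just under the fold minimum (0.99 ± 0.11, adjusted p = 7.55e-06). Of all genes 0.271% were called in MPP at 2 h, 0.737% at 12 h and 1.2% at 24 h. The Rgs16 call at 4 h was lost without MPP 0 h replicate 1 or MPP 4 h replicate 3. Rgs1, which quenches the inhibitory G proteins these receptors use, was 8.03, 7.98 and 7.76 untreated and 9.70, 9.39 and 9.52 at 24 h (1.61 ± 0.09, adjusted p = 3.08e-09). In CDP none of the 13 was called at any time, with a median of 0.17 against 0.00 at 24 h. The share of all genes called in CDP was 0.326% at 2 h and 3.14% at 24 h. Rgs1 in CDP was at 7.71, 7.79 and 8.98 untreated and 8.68, 8.97 and 9.37 at 24 h. That difference was 0.84 ± 0.30 (adjusted p = 0.053), under the fold minimum. The CDP mean of Rgs1 was also higher at the earlier times, without a call. It was 8.16 untreated, 9.56 at 2 h, 9.07 at 4 h, 9.22 at 8 h and 9.01 at 12 h. Replicate 3 was the highest array untreated and at 2 h (10.88). The difference of responses of Rgs1 was not called at any time, so a rise particular to MPP was not shown. Rgs16 stayed between 7.91 and 8.37 on all CDP arrays, and its difference of responses was -1.12 ± 0.18 at 8 h and -1.11 ± 0.18 at 12 h, both called. Grk3 was higher in untreated CDP than in MPP (1.04 ± 0.13) and Grk5 lower (-1.18 ± 0.13), both kinases that mark active receptors for arrestin. The Grk3 call was lost without MPP 0 h replicate 1 or CDP 0 h replicate 2.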

How the data were processed

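The deposited values were log2 levels of 35556 probe sets on 36 Affymetrix Mouse Gene 1.0 ST arrays, made by the authors with Affymetrix Power Tools and RMA per the labels' processing notes; the versions and genome build were not given in the sources used here. RMA puts all arrays on one distribution, so an even shift of all genes would not be seen, and it compresses differences of dim genes. The study's own text describes FARMS for its analysis. Probe sets with 1 gene symbol in the platform annotation (21789) were kept and, for each of 19938 genes, the probe set with the highest mean over the arrays was used. Groups came from the sample descriptions.

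Each time was tested against 0 h within a cell type with limma 3.58.1 in R 4.3.3, with the replicate number as a block as in the study's methods. The difference of responses used all 36 arrays with the replicate within cell type as a block, and level differences between cell types used no block. Every p was adjusted over all genes (Benjamini-Hochberg), with calls at an adjusted p under 0.01 and a log2 difference of 1 or more. The correlation of deviations from the group means between each treated array and the 0 h array of its number was over 0.1 in 15 of 15 pairs in MPP and in CDP (lowest 0.189 and 0.212). Over all same-numbered pairs of arrays the lowest was 0.189 in MPP, but -0.128 in CDP, in replicate 1, so not every pair deviated together. The block was kept because the study's methods use it. The test was first run on simulated data with normal noise of equal size on all arrays. Those data hold no outlying arrays like the ones named above, so the run cannot show how the test deals with them. Alternatives were other blocks, fits, filters, probe set rules, centring, normalization and thresholds, and leaving out each array and each replicate. Intervals are at 95%. With 3 arrays per group the number of arrays limits the precision. The p-values weigh a difference against the spread between these arrays, after removal of the replicate block where one was used.

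The 6 receptors, the gene lists and the naming rule were chosen with earlier results of these data known: the 6 receptors, any called gene of the pathway lists, and the 3 genes most like each receptor by Pearson correlation. The lists held other chemokine receptors, ligands, signalling, desensitisation and cell markers. Of 10 lymphocyte markers 1 was called in CDP at 24 h and none in MPP, where 3.14% and 1.2% of all genes were called. Of 9 mast cell markers 5 were lower in untreated CDP, where 2.81% of all genes were called, and 1 rose at 24 h in each cell type. Of 8 multipotent progenitor markers 3 were lower and 1 higher in untreated CDP.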

Additional observations from a re-analysis of the deposited data

Results flagged for a closer look

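The change against 0 h differed between CDP and MPP, by the interaction test on 36 arrays at an adjusted p under 0.01, for Ccr6, Ccr1, Cx3cr1 and Cxcr4. The CDP change minus the MPP change was 1.19, 2.05 and 2.21 for Ccr6 at 8, 12 and 24 h, and 1.28 and 1.36 for Ccr1 at 12 and 24 h. It was -0.83, -1.24 and -1.80 for Cx3cr1 at 8, 12 and 24 h, and -0.95 for Cxcr4 at 24 h. At 24 h 4 of the 6 passed, where 10.1% of all genes did by adjusted p alone. Without the replicate block Ccr6 at 8 h (adjusted p = 0.182) and Ccr1 at 12 h (adjusted p = 0.258) and 24 h (adjusted p = 0.078) did not pass. Nor did these pass without all arrays of replicate 1 or of replicate 2. Whether Ccr6 in MPP is above background was not tested. The groups have 3 arrays each, too few for the test of a single outlying array.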

How the results depend on the processing

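Of 102 pairs of a receptor and a comparison, 19 were called. All 19 kept their direction under every alternative run, and 12 kept the call under all but the looser threshold, which can only add calls. With a call at an adjusted p under 0.05 and no fold minimum the number of receptors called rose from 0 to 4 in MPP at 2 h and 4 h, from 1 to 4 at 8 h and 12 h and from 0 to 3 at 24 h, in CDP from 0 to 1 at 2 h, 0 to 3 at 4 h, 1 to 2 at 8 h and 2 to 5 at 24 h, between the cell types at 24 h from 3 to 6, and for the difference of responses from 1 to 2 at 8 h and 3 to 5 at 24 h. Without the replicate block the number went from 1 to 0 in CDP at 8 h, from 2 to 1 in CDP at 24 h and from 1 to 0 for the difference of responses at 8 h; the block changed no other count of receptors by over 1.5 times, and with it as a term shared by the cell types the level differences kept 3 of 6 at 0 h and 3 of 6 at 24 h. An intensity trend with a robust prior gave 1 in CDP at 24 h, and centring each array on its median gave 1 in MPP at 4 h. Leaving out arrays gave 1 to 2 in CDP at 24 h, 0 to 2 for the difference of responses at 8 h, and 0 to 1 in MPP at 2, 4 and 24 h. Over all genes, the calls changed by over 1.5 times with every probe set tested in CDP at 2 h (125 in place of 65) and 4 h (211 in place of 140), and without the block for the difference of responses at 4 h (17 in place of 28) and 8 h (53 in place of 82). The looser threshold raised the number in every comparison as well: of 19938 genes it called 1254, 1820, 2973, 2672 and 2953 in MPP at 2, 4, 8, 12 and 24 h, 774, 1665, 3175, 3454 and 5421 in CDP, 8070 between the cell types at 24 h, and 696 and 2992 for the difference of responses at 8 and 24 h. Leaving out arrays gave 0 to 10 in place of 6 for the difference of responses at 2 h, 14 to 30 in place of 28 at 4 h and 42 to 77 in place of 82 at 8 h. The cause of these shifts was not tested. Another 16 pairs, none of them called and all at 0.22 or less in size, changed sign on leaving out an array or a replicate. For Ccr1 these were the difference of responses at 2 h (-0.41 to 0.25). For Ccr6 these were MPP 12 h against 0 h (-0.07 to 0.03), MPP 2 h against 0 h (-0.05 to 0.08), MPP 4 h against 0 h (-0.09 to 0.00), the difference of responses at 2 h (-0.04 to 0.07). For Ccr7 these were CDP 12 h against 0 h (-0.16 to 0.04), CDP 2 h against 0 h (-0.09 to 0.15), CDP 4 h against 0 h (-0.18 to 0.17), CDP 8 h against 0 h (-0.12 to 0.07), MPP 12 h against 0 h (-0.05 to 0.21), MPP 24 h against 0 h (-0.15 to 0.04), MPP 4 h against 0 h (-0.10 to 0.27), the difference of responses at 2 h (-0.08 to 0.30), the difference of responses at 24 h (-0.42 to 0.11), the difference of responses at 4 h (-0.25 to 0.09). For Cxcr4 these were the difference of responses at 2 h (-0.03 to 0.20). Leaving out single arrays of the other pathway genes was chosen after seeing the data: 47 of 60 calls were kept each time. The deposited values came without a detection call or an estimate of background, so whether dim levels are above background was not tested.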
